A study of Mus musculus with 6 samples.

Results

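Autosomal CpG sites that stayed near half-methylated in every animal were examined in the adult mouse dentate gyrus, the hippocampal region that receives cortical input and keeps producing neurons in adult life. A site was taken when its methylation level, the percentage of reads with a methylated cytosine at that position and strand, lay from 30% to 70% in each of 6 libraries. The rule took 4422 of 866851 autosomal sites, a share of 0.510%, out of 890041 sites covered in all, and the 4422 sites lay at 4336 CpGs because some CpGs were read on both strands. The levels chose the sites, so the levels themselves are given as a description. Values of exactly 30% or 70% were counted as inside.

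The study asked whether environmental enrichment, a large cage with companions and changing objects, alters DNA methylation in this tissue. Female C57BL/6JRj mice aged 4.5 months had lived for 3 months in enrichment (ENR, n = 3) or in standard cages (STD, n = 3), each library came from the micro-dissected dentate gyrus of a different mouse, and the labels name no transgene or drug. Methylation was read by reduced representation bisulfite sequencing (RRBS), which sequences the ends of DNA fragments cut at CCGG. The tissue is a mixture of granule neurons, glia and other cells, so a level describes the mixture.

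In mammals most CpGs are either methylated or unmethylated in nearly all copies of a locus. Imprinted genes are the textbook exception: at their control regions one parental copy carries methylation set in the germ line and the other does not, so the region reads near the middle of the scale in every tissue. Intermediate levels also arise where cell types differ or where copies are methylated at random, and a percentage per site does not distinguish these cases.

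The reference sequences of 7 of the clusters are shown because they let the half-methylated CpGs be seen in their setting. All are the plus strand of GRCm38 from RefSeq, 5′ to 3′, with the CG of each half-methylated CpG in capitals and every other base in lower case. The Plagl1 stretch is the part of its cluster just inside an intron (chr10:13091025-13091131, 4 of 13 such CpGs shown). The Nphp4 (chr4:152547901-152548160) and Nrip1 (chr16:76295395-76295495) stretches are intronic and hold whole clusters. The Magel2 stretch lies in its coding exon (chr7:62377417-62377716, 4 of 6 shown) and the Neurod6 stretch in a coding exon (chr6:55679231-55679345). The Rbfox3 stretch is intronic (chr11:118899988-118900022), and the Taf8 stretch spans exon and intron sequence near the gene's start (chr17:47501425-47501541).
Plagl1: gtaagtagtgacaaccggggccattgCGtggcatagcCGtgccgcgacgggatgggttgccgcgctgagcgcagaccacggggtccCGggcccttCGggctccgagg
Nphp4: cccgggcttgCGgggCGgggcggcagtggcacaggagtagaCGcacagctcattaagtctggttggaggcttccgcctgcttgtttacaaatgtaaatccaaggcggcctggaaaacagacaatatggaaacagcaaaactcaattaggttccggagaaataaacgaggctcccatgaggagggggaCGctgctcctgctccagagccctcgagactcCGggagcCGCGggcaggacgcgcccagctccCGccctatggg
Nrip1: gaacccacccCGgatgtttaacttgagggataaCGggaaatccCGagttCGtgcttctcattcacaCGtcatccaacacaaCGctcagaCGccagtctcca
Magel2: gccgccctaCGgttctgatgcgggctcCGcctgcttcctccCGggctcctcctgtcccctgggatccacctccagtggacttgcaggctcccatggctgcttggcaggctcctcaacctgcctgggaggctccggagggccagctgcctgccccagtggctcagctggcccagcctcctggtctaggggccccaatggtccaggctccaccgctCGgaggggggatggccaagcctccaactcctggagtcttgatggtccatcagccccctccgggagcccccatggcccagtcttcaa
Neurod6: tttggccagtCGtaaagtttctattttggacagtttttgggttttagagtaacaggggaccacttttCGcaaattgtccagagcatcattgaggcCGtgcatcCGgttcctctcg
Rbfox3: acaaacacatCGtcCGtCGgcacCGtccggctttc
Taf8: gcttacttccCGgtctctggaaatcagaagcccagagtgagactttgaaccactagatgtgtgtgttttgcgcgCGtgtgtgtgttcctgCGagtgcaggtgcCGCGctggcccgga
In the Nrip1 stretch each of the 7 CpGs present is half-methylated by the rule, whereas the Plagl1 stretch holds 13 CpGs of which 4 met it.

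The letters TGCCGC, the core recognised by ZFP57, a zinc finger protein that keeps imprinted methylation, were searched on both strands. They occur 2 times in the Plagl1 stretch, 1 time each in the Nphp4 and Taf8 stretches and in none of the other 4 stretches printed. Within 150 bases of a site the letters were found at 8.30% of the half-methylated sites, at 6.86% of other intermediate sites and at 19.3% of all autosomal sites. The median GC content of the 201 bases around a site was 51.2% at the half-methylated sites and 61.2% at all autosomal sites, and its part in these shares was not tested. In the promoters of genes with a germ-line imprint, 12 of 22 half-methylated sites (54.5%) and 331 of 815 covered sites (40.6%) had the letters. Of these 12 sites 10 were at Plagl1, whose sites share sequence and reads, and without Plagl1 the counts were 2 of 9 (22.2%) and 281 of 734 (38.3%), so the order of the shares turned.

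The libraries did not read these sites alike. STD 3 and ENR 3 stood apart from the other 4 libraries, with autosomal means of 21.8% and 20.7% against 23.1% to 23.5%. The gap was wide at the 65642 sites whose mean over the libraries lay from 30% to 70% but which the rule did not take, here called other intermediate sites. There the means were 44.2% in STD 3 and 37.3% in ENR 3, against 52.7% to 54.4% in the other 4 libraries. The number of reads behind each site is unknown beyond the minimum of 10 that the authors set, and what sets these libraries apart was not tested.

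At the 4422 sites the library means were 51.05%, 50.6% and 48.4% in STD 1 to 3 and 50.7%, 50.3% and 46.8% in ENR 1 to 3. The group means were 50.02% ± 1.42 for STD and 49.3% ± 2.19 for ENR (SD, n = 3 each), and the libraries of the 2 groups overlapped. The lower quartile of the sites was 42.8% in STD 1 and 37.8% in ENR 3. The median spread of a site, the highest minus the lowest of its 6 values, was 25.7 percentage points, against 53.2 at other intermediate sites, a contrast that the rule itself sets.

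**Figure D1:**
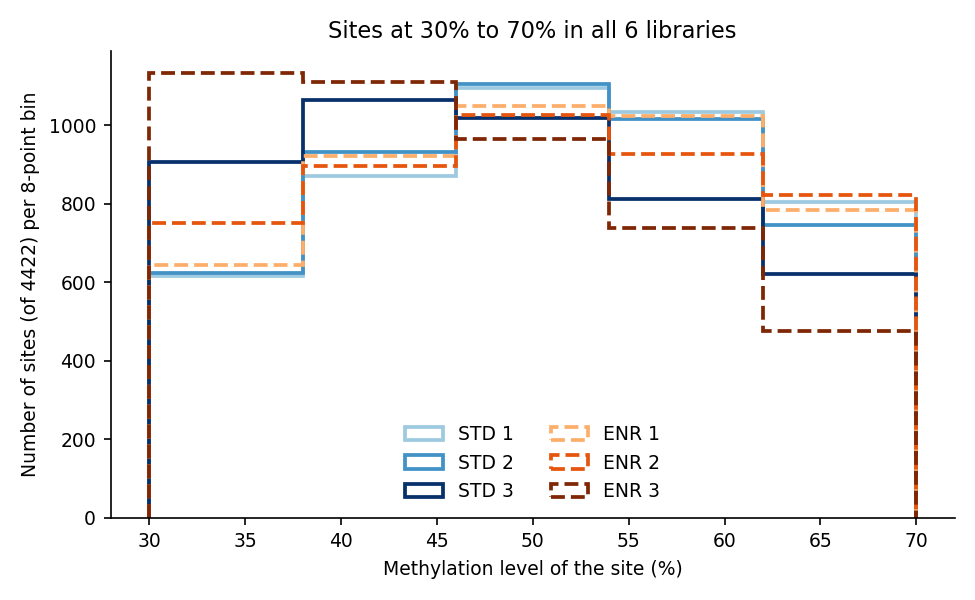
Number of the 4422 sites (vertical axis) in each 8-point bin of methylation level in percent (horizontal axis), 1 line per library, solid for STD and dashed for ENR. The lines of STD 3 and ENR 3 sit higher in the lowest bin and lower in the highest bin than those of the other 4 libraries.

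The steadiest site lay 14549 bp from the nearest start, that of the zinc finger gene Zfp644 (chromosome 5, position 106711836), and read 38.9%, 41.4% and 39.7% in STD 1 to 3 and 41.3%, 39.5% and 40% in ENR 1 to 3. The site next in order lay 30073 bp from the small RNA gene Gm23191 and spread over 3.18 points. Neither of these 2 sites lay in an imprinted region.

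The edge of the set was soft. A further 13271 autosomal sites met the rule in exactly 5 libraries, and in 2279 of them the remaining value lay from 25% to 30% and in 2055 from 70% to 75%. Of the 4422 sites, 1758 had a value within 2 points of a bound and 254 had a value of exactly 30% or 70%. Apart from values of exactly 30% or 70%, the nearest values were 30.05% and 69.9% inside and 29.96% and 70.05% outside.

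Each library was then left out of the choice and read at the sites that the other 5 libraries chose. Of the sites so chosen, 74.3% also lay from 30% to 70% in STD 1, 75.1% in STD 2 and 64.8% in STD 3. The shares were 69.8% in ENR 1, 66.1% in ENR 2 and 54.5% in ENR 3. ENR 3 was the lowest reading: its median at its 8111 sites was 37.5%, while the other 5 libraries had a median of 49.7% there, and 5.22% of the sites read exactly 0 in it. Sites chosen from the 3 STD libraries alone numbered 19596, and 22.6% of them lay inside in each ENR library. Sites chosen from the 3 ENR libraries alone numbered 14320, and 30.9% of those lay inside in each STD library.

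**Figure D2:**
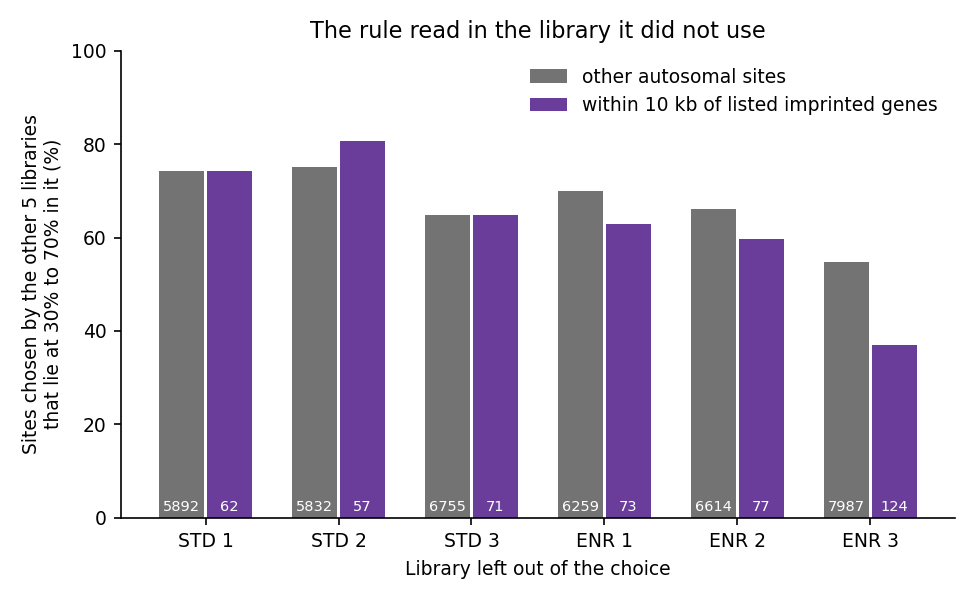
For each library left out of the choice (horizontal axis), the percentage of sites chosen by the other 5 libraries that lay at 30% to 70% in it (vertical axis), with the number of sites chosen at the foot of each bar; purple bars are sites within 10 kb of a listed imprinted gene. ENR 3 has the lowest bars, 54.8% for sites elsewhere and 37.1% for the imprinted loci.

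The half-methylated sites lay mostly away from promoters. Of 4422 sites, 812 (18.4%) were within 1 kb of a transcription start of GENCODE M21, against 61.0% of all autosomal sites covered, and the median distance to the nearest start was 7766.5 bp against 440 bp. By gene structure 18.9% were exonic, 43.1% intronic and 37.97% intergenic, against 38.3%, 33.6% and 28.1% of all autosomal sites. Sequence with the composition of a CpG island surrounded 12.98% of them and 56.6% of all autosomal sites. Other intermediate sites had nearly the same make-up, with 17.2% in promoters, 43.6% in introns and 10.8% in island-like sequence. The share of sites in repeats was 10.1%, close to the 9.09% of all autosomal sites, and 3.03% had a 50-base surrounding that occurs more than once in the genome, against 2.70%.

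The sites were spread over every autosome. The share of covered sites that met the rule ran from 0.420% on chromosome 19 to 0.639% on chromosome 18. Chromosome 18 carries the clustered protocadherins, adhesion molecules of which single neurons express different members, and without the sites nearest to them its share was 0.543%. Of 743 covered sites nearest to a clustered protocadherin, 31 (4.17%) met the rule, 29 of them in exons, with library means from 47.8% in ENR 3 to 54.9% in ENR 1.

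Chained with gaps of at most 1 kb, the 4422 sites gave 3265 single sites and 491 clusters of 2 or more sites, and the clusters held 1157 sites (26.2%). Chained in the same way, 73.7% of the 65642 other intermediate sites and 98.0% of all autosomal sites were in clusters, but those sets have more sites and so smaller gaps. The share for the half-methylated sites was 43.4% with bounds of 25% to 75%, 7.03% with 40% to 60% and 44.1% without STD 3 and ENR 3. Counted by CpG, 441 clusters had 2 or more CpGs, of which 350 had 2, 68 had 3, 14 had 4 and 9 had 5 or more, with 13 as the highest number. The median cluster spanned 48 bp. Among the 1334 other covered sites inside these spans, 720 (54.0%) had a mean from 30% to 70%. By cluster, 290 held other covered sites. In 161 of these (55.5%) more of the other sites had a mean from 30% to 70% than did not, and in 46 none had.

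Intermediate level extended to nearby CpGs. Of covered CpGs within 50 bp of a half-methylated CpG, 54.2% had a mean from 30% to 70%, and the share was 42.1% at 51 to 200 bp and 20.98% at 201 to 1000 bp. Around other intermediate sites the 3 shares were 53.0%, 42.0% and 21.03%, and around all autosomal sites 3.17%, 2.54% and 1.62%. Neighbours that met the rule themselves made up 10.2% of CpGs within 50 bp of a half-methylated CpG and 4.03% of those within 50 bp of other intermediate sites. Close neighbours share reads and depth, and how far this sets these shares was not tested. With covered CpGs within 200 bp on each side, 21.1% of 2682 half-methylated CpGs had both sides under 30% and 32.7% had both sides from 30% to 70%, close to the 19.2% and 32.9% around other intermediate sites.

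The opposite strand of the same CpG, which RRBS reads with other reads, gave a further reading of the same CpGs. It was covered at 1101 of the 4422 sites, and at 953 of them (86.6%) its mean over the 6 libraries lay from 30% to 70%. Among the 953 are the 172 (15.6% of the 1101) that met the rule in each library. At other intermediate sites the opposite strand had a mean from 30% to 70% in 70.3% and met the rule in 7.43%. The means of the half-methylated sites themselves lay from 34.1% to 65.96%, while those of other intermediate sites could lie anywhere from 30% to 70%. How far this, or depth shared by the strands, sets the contrast was not tested.

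RRBS fragments run from one CCGG to the next and were read from one end, so sites of the same fragment and strand are read by the same molecules. Of the 441 clusters with 2 or more CpGs, 210 (47.6%) lay on a single fragment and strand, 102 on both strands of one fragment and 129 on 2 or more fragments. As they share molecules, sites of one fragment and strand are not separate measurements of an animal.

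Plagl1, an imprinted zinc finger gene of growth control whose maternal copy is methylated, held the cluster with the highest number of CpGs. Its 13 half-methylated CpGs lay from 5 to 108 bp from a start on chromosome 10, from 13090793 to 13091121, among 41 covered sites, and the mean of each of the other 28 also lay from 30% to 70%. The cluster averaged 47.7%, 51.5% and 52.5% in STD 1 to 3 and 46.5%, 53.3% and 52.8% in ENR 1 to 3, and the groups overlapped. Of the 13 CpGs, 8 lay on the plus strand of one fragment of 93 bp, which averaged 49.6%, 52.6% and 50.4% in STD and 44.7%, 49.2% and 53.3% in ENR.

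The neighbouring reads at Plagl1 were less steady. On the minus strand of the same fragment 8 covered sites averaged 49.0%, 57.5% and 33.5% in STD but 79.1%, 86.4% and 35.8% in ENR, and none met the rule. The adjoining fragment of 74 bp, 9 sites on the plus strand, averaged 42.5%, 28.99% and 19.4% in STD and 82.5%, 44.7% and 0% in ENR. Thus ENR 1 and ENR 3 read 82.5% and 0% on one fragment and 44.7% and 53.3% on the next. At the CpG at position 13090934 the plus strand read 42.9% in ENR 1 and the minus strand 80.0%. What parts the 2 strands was not tested.

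**Figure D3:**
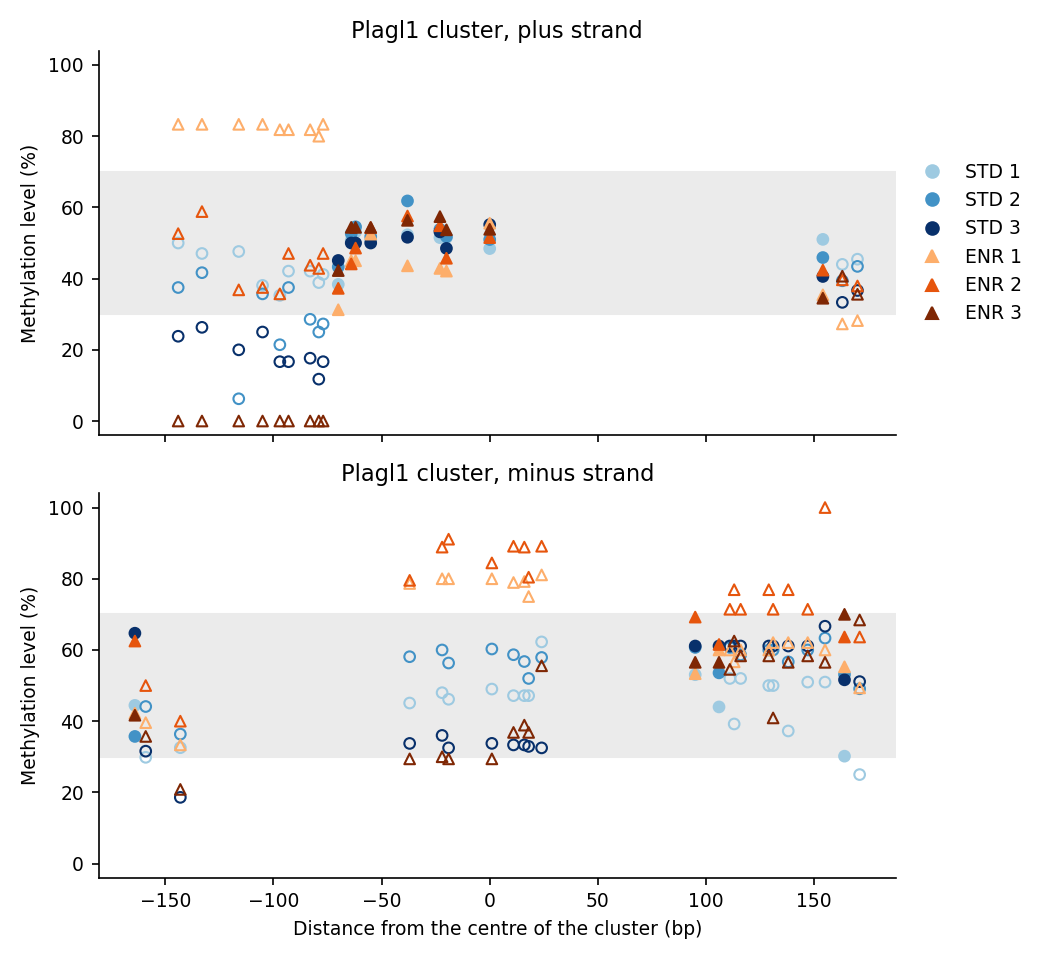
Methylation level in percent (vertical axis) of each covered site of the Plagl1 cluster by distance from the cluster's centre in bp (horizontal axis), plus strand above and minus strand below, circles for STD and triangles for ENR libraries, filled where the site met the rule; the band marks 30% to 70%. The block of 8 filled plus-strand sites lies between 31.25% and 61.8% in the 6 libraries, while the block to its left spreads from 0% to 83.3%.

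Magel2, a single-exon gene of the Prader-Willi region expressed from the paternal copy, had 6 half-methylated CpGs of 17 covered sites, 417 to 796 bp from a start. They averaged 46.1%, 48.1% and 50.1% in STD 1 to 3 and 55.2%, 48.6% and 42.8% in ENR 1 to 3. The ENR libraries lay on both sides of the STD libraries. The 6 CpGs sat on 3 fragments, each on the minus strand. The other 11 sites had single values from 0% to 100%, and the mean of 3 of them was under 30%. On the plus strand of the first fragment, of 68 bp, 2 sites averaged 38.7%, 31% and 0% in STD and 54.6%, 45.1% and 30.95% in ENR.

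Commd1, a copper and trafficking gene, carries in an intron the imprinted gene Zrsr1, whose promoter is methylated on the maternal copy. There 6 CpGs of 35 covered sites met the rule on chromosome 11 from 22972221 to 22972990, at 46.1%, 40.6% and 45.2% in STD and 43.7%, 44.5% and 42.4% in ENR. The groups overlapped. The cluster had 2 ends of unlike level: the first 2 sites averaged 58.2% and 56.0% over the 6 libraries and the last 3 averaged 34.4%, 34.1% and 34.9%. Of the other 29 sites 16 had a mean from 30% to 70%, 11 were under 30% and 2 over 70%, and their single values ran from 0% to 94.0%.

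The clusters next to Plagl1 in number of CpGs, with 8 and 7, lay outside imprinted loci. Nphp4, which encodes a protein of the base of the cilium, had 8 half-methylated CpGs of 25 covered sites in an intron, 44997 bp or more from a start. The cluster averaged 50.9%, 49.2% and 48.4% in STD and 50.4%, 52.8% and 49.9% in ENR, with overlap of the groups, and its single sites spread over 14.2 to 36.8 points. Of the other 17 sites 8 had means from 30% to 70%, 5 lay under 30% and 4 over 70%.

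Nrip1, a corepressor of nuclear hormone receptors, had 7 half-methylated CpGs in 81 bp of an intron, and each of the 9 sites covered on both strands met the rule. The cluster averaged 56.5%, 49.9% and 50.5% in STD and 53.3%, 42.1% and 54.6% in ENR, with overlap of the groups. Its first CpG read 62.1%, 52.9% and 61.1% in STD and 39.3%, 44.2% and 46.6% in ENR, so that the groups did not overlap there. They did not overlap at the next CpG either, by less, with 50.4%, 52.1% and 51.5% in STD and 47.2%, 48.7% and 48.9% in ENR. On the other strand of the fragment neither of these CpGs was covered. The 3 sites read there, at other CpGs, averaged 61.1%, 50.9% and 48.5% in STD and 66.2%, 41.3% and 60% in ENR, and the groups overlapped.

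Neurod6, a basic helix-loop-helix factor of excitatory neurons, had 4 half-methylated CpGs in a coding exon and no other site covered within the 95 bp. The cluster read 52.5%, 53.7% and 55.1% in STD 1 to 3 and 46.9%, 41.1% and 44.4% in ENR 1 to 3. Each ENR library lay under each STD library, with a difference of -9.63 points. Taken singly, the groups did not overlap at the CpG at position 55679241, with 39.3%, 60% and 51.25% in STD and 32.5%, 37.2% and 32.5% in ENR, and they overlapped at each of the other 3 sites.

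**Figure D4:**
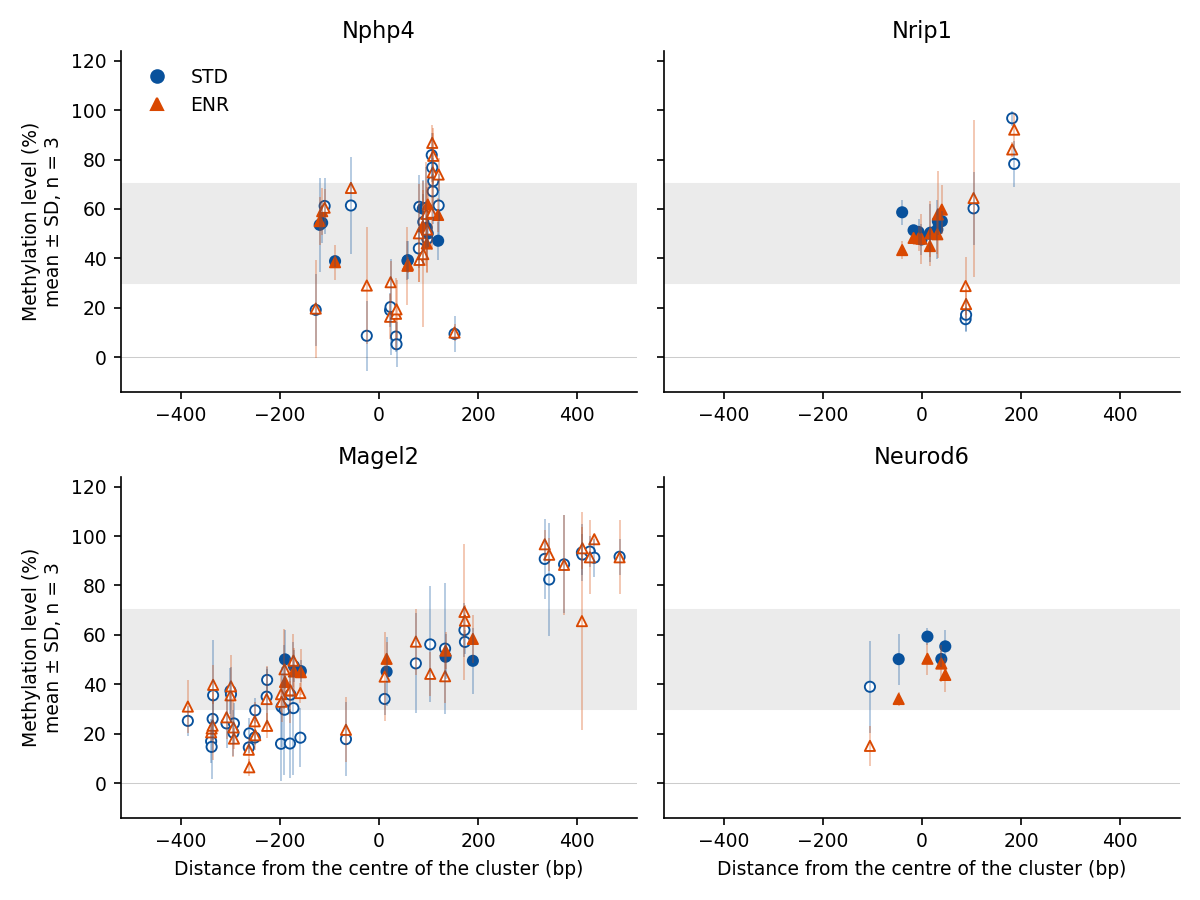
Methylation level in percent (vertical axis, mean ± SD of 3 libraries per group) of each covered site by distance in bp from the centre of the Nphp4, Nrip1, Magel2 and Neurod6 clusters (horizontal axis), blue circles for STD and orange triangles for ENR, filled where the site met the rule in all 6 libraries; the band marks 30% to 70%. At Magel2 the sites to the left of the cluster lie lower than those to its right, and at Neurod6 the ENR means lie under the STD means at each filled site.

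The other clusters of 5 or 6 CpGs lay at Ssbp4, Taf8, Nab2 and Oprd1. Ssbp4, a single-stranded DNA binding protein, had 6 CpGs of 45 covered sites, 75 to 165 bp from an annotated transcript start. They averaged 45.6%, 47.2% and 48.3% in STD and 57.1%, 50.7% and 48.5% in ENR. Each ENR library was above each STD library there, while the other 39 sites averaged 27.7%. Taf8, a subunit of the general transcription factor TFIID, had 5 CpGs at 45.8%, 53.5% and 37.4% in STD and 53.8%, 54.5% and 44.9% in ENR. Nab2, a corepressor of the EGR factors, had 5 CpGs in exonic sequence where it overlaps the transcript Gm16229, with library means from 47.4% to 62.9%. Oprd1, the delta opioid receptor, had 5 exonic CpGs with library means from 40.3% to 53.6%. The groups overlapped at Taf8, Nab2 and Oprd1.

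Besides Neurod6, the clusters of 4 CpGs ranked next by the share of covered sites that met the rule lay at A730009L09Rik, in introns of Rbfox3, Npas3 and a (nonagouti, the agouti signalling gene), in exons of Zscan2 and of the gamma protocadherins, near Gm10775, and in intergenic sequence whose nearest start was that of Rpl31-ps2 or AC129179.3. A further one on chromosome 17 lay at Gm42418 and Gm26917. Their means over the 6 libraries lay between 44.3% and 52.4%. At Rbfox3 the 4 CpGs fell within 15 bp and yet single values ran from 30.4% to 69.5%, the largest site spread there being 39.1 points.

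Of the 441 clusters 28 (6.35%) had every ENR library under every STD library and 20 (4.54%) the reverse. Among clusters of 3 or more CpGs, 91 in number, the counts were 6 and 3. Site by site, 262 of the 4422 (5.92%) were lower in ENR without overlap and 163 (3.69%) were higher. Over the 615152 sites with any variation the percentages were 3.38 and 2.39, and at other intermediate sites they were 5.43% and 3.17%. The ENR mean was the lower at 2367 sites (53.5%), and with STD 3 and ENR 3 left out at 2261 (51.1%). At other intermediate sites these shares were 57.1% and 51.7%.

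Differences over 25 points between the group means were found at 7 of the 4422 sites, 5 lower and 2 higher in ENR. Over the varying sites 1.79% and 1.02% passed that limit, but the rule caps the difference at 40 points and nothing can be read from the contrast. At 2031 sites (45.9%) the groups differed by under 5 points. The site with the widest rise lay in an intron 486 bp from the start of 2610028D06Rik and read 31.3%, 33.8% and 30.4% in STD against 65.4%, 63.6% and 64.6% in ENR. The widest fall was near Gm33337, at 65.6%, 70% and 62.8% in STD against 33.9%, 32.6% and 39.0% in ENR. In limma fitted to the 615152 sites no site was called (0.00%), and the smallest Benjamini-Hochberg adjusted p was 0.852. With 3 libraries per group and no read numbers, this fit can miss changes. The study used a read-based test on these animals and reported changed CpGs, so the lack of calls does not show that none changed. In the limma fit 2 of the 4422 sites (0.0452%) and 16498 of all varying sites (2.68%) had an unadjusted p under 0.05. The order of these shares turned with the model: without the variance trend they were 357 sites (8.07%) and 3.91%, and with sites that do not vary included 265 sites (5.99%) and 2.14%. The rule that chose the 4422 sites also limits their spread, so nothing is read from these shares.

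Imprinted loci, taken as the body and 10 kb on each side of 27 genes with a germ-line imprint (gametic DMR genes) and 73 other imprinted genes found in the annotation, held 46 of the 4422 sites. That is 1.04%, against 1.01% of other intermediate sites and 0.558% of all autosomal sites covered. Of the sites with a mean from 30% to 70%, the rule took 6.49% at imprinted loci and 6.31% on all autosomes. The half-methylated sites at imprinted loci lay in promoters in 36 of 46 cases (78.3%), against 17.7% elsewhere, but 73.3% of all covered sites at imprinted loci were in promoters. In clusters of 2 or more CpGs were 31 (67.4%), against 23.4% elsewhere, but these were 5 clusters, and without the 25 sites at Plagl1, Magel2 and Commd1 the count was 6 of 21 (28.6%). Their median spread was 18.7 points against 25.8 elsewhere, a value the rule limits, and over all sites with a mean from 30% to 70% it was 49.3 points at imprinted loci and 51.4 on all autosomes. Their means were 46.1%, 48.1% and 47.4% in STD and 49.5%, 49.9% and 45.5% in ENR. Plagl1 alone gave 13 of the 46.

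Each of the 27 gametic DMR genes had covered sites, and 7 had a half-methylated site within 10 kb. Plagl1 had 13 and Zrsr1 had 6. Grb10, a growth-restraining adaptor, Mcts2, Mest, Peg13 and Zdbf2 had 1 each, and the sites of Mcts2 and Zdbf2 lay outside their promoters. The site of Peg13, a noncoding transcript expressed from the paternal copy, read 34.95%, 41.1% and 41.5% in STD and 42.9%, 30.95% and 41.9% in ENR. The site of Mest, a paternally expressed hydrolase, read 40.5%, 42.9% and 40% in STD and 46.2%, 52.9% and 30.8% in ENR. The site of Grb10 read 64.9%, 54.5% and 34.6% in STD and 44.9%, 65.8% and 38.7% in ENR, the site of Mcts2 46.0%, 35.9% and 55.4% and 58.1%, 36.7% and 33.8%, and the site of Zdbf2 49.2%, 65.6% and 53.2% and 68.4%, 50% and 37.9%. The groups overlapped at each of these 5 sites.

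No site met the rule at Airn, Cdh15, Fkbp6, Gnas, Gpr1, H19, Igf2r, Impact, Inpp5f, Kcnq1ot1, Meg3, Nap1l5, Nespas, Nnat, Peg10, Peg3, Rasgrf1, Slc38a4, Snrpn and Snurf. At Nap1l5, a nucleosome assembly gene with a maternally methylated promoter, each of 23 promoter sites had a mean from 30% to 70%, with library averages of 47.8%, 41.6% and 34.1% in STD and 36.3%, 56.7% and 23.3% in ENR. At Airn, the noncoding transcript that silences Igf2r, each of 8 promoter sites did, at 48.8%, 52.3% and 30.7% and 49.8%, 52.9% and 27.2%. At Nnat, a membrane proteolipid of the developing brain, 5 of 13 promoter sites had such a mean, and the 13 averaged 35.7%, 13.9% and 7.81% in STD and 71.1%, 29.8% and 5.84% in ENR. These 3 promoters were chosen after their values were seen. Of the 25 gametic promoters with covered sites, Snrpn and Snurf sharing theirs, ENR 3 had the lowest average at 15, each other library at 1 to 3, and 1 was tied.

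Much of this moved with ENR 3. Of the 290 sites in gametic promoters with a mean from 30% to 70%, 192 were outside the bounds in ENR 3, 188 of them under 30%, and 135 were outside in STD 3. The number outside was 34 in STD 1, 59 in STD 2, 91 in ENR 1 and 76 in ENR 2. At 54 sites ENR 3 was the only library outside, against 9 for STD 3, 9 for ENR 1, 14 for ENR 2, 7 for STD 1 and 3 for STD 2. With ENR 3 left out, 14 of the 27 genes had a site that met the rule in the other 5 libraries, among them Grb10 with 21, Gnas with 14 and Nespas with 12. With any other library left out the number of genes was 7 to 12, with 12 for STD 3. With STD 3 and ENR 3 both left out 16 genes had one, with 33 sites at Gnas and 31 at Grb10, while Plagl1 went from 13 to 18. Fewer libraries make the rule easier to meet, and a choice with any library removed took 5889 to 8111 autosomal sites.

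**Figure D5:**
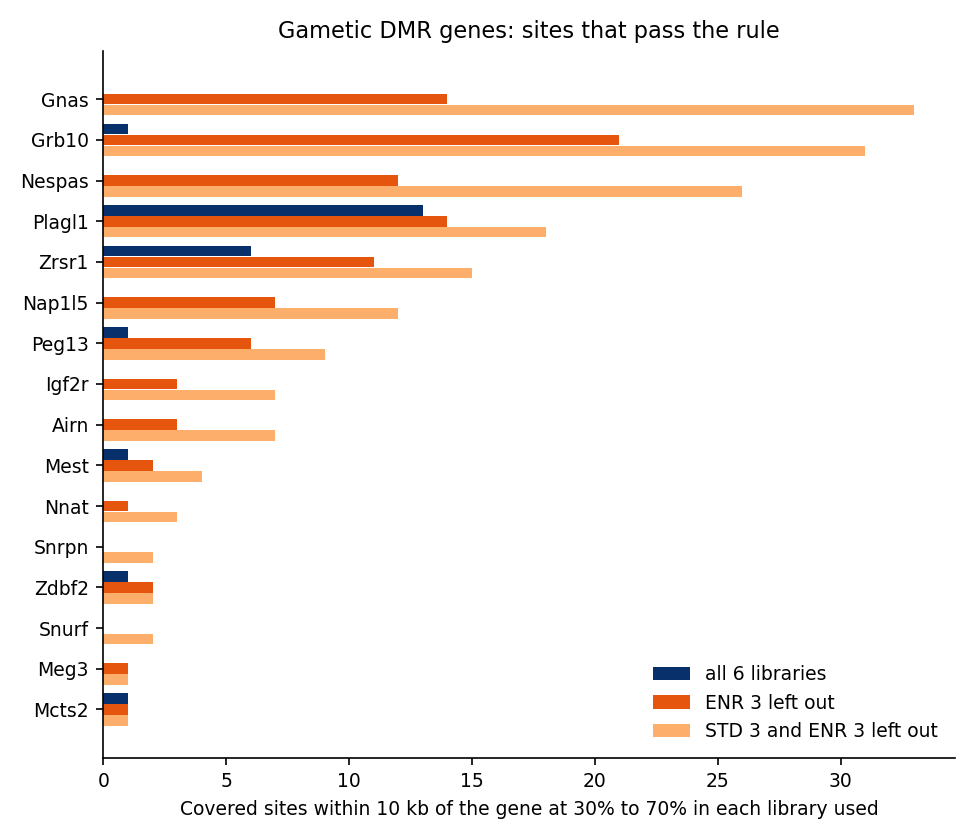
Number of covered sites within 10 kb of each gametic DMR gene (horizontal axis) that lay at 30% to 70% in all 6 libraries, with ENR 3 left out, and with STD 3 and ENR 3 left out, for the 16 genes with at least 1 site in the last case; Gnas and Nespas, and Airn and Igf2r, share sites. Gnas goes from 0 to 14 to 33 and Plagl1 from 13 to 14 to 18.

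The promoters of the gametic DMR genes were also compared over every covered site, whatever its level, so that the rule had no part in the choice. Over 815 sites at 25 genes the mean was 27.5%, 26.4% and 19.7% in STD 1 to 3 and 26.9%, 27.8% and 15.2% in ENR 1 to 3. The group means were 24.5% ± 4.24 and 23.3% ± 7.02 (SD, n = 3 each), a difference of -1.19 points (p = 0.9 in a two-sided exact permutation of the libraries, which can reach 0.1 at the lowest). With STD 3 and ENR 3 left out the difference was 0.43 points, the other way.

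Of the 73 other imprinted genes, 16 had a half-methylated site within 10 kb. Magel2 and Commd1 had 6 each, Cdkn1c, a maternally expressed inhibitor of cyclin-dependent kinases, had 4, H13, a signal peptide peptidase that carries Mcts2 in an intron, had 3, and the other 12 had 1 each. The sites near Commd1 are those near Zrsr1. The 25 sites whose nearest start was that of a gene in this list made up 0.792% of 3155 covered sites, against the autosomal share of 0.510%. For the gametic DMR genes the count was 19 of 919 (2.07%), and without Plagl1 it was 6 of 826 (0.726%).

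By nearest start the 4422 sites fell to 3340 genes, of which 2661 had a single CpG and 26 had 5 or more. Protein-coding genes were nearest to 55.7% of the sites, long intergenic noncoding RNAs to 12.8% and pseudogenes to 12.6%, against 74.7%, 6.52% and 7.08% of all autosomal sites. Other intermediate sites had nearly the same shares, with 56.6%, 12.2% and 12.9%. Plagl1 and Rbfox3 had 13 CpGs each, but Rbfox3, a neuronal splicing factor known as NeuN, had 377 covered sites and Plagl1 had 93. Nphp4 had 9, the zinc finger gene Zfp503 had 8, and the antisense transcript 1700060O08Rik, Nrip1 and the homeobox gene Otx1 had 7. Csmd2, Cux2, Magel2, Prdm16, Rbfox1, Ssbp4 and a had 6 each. From Nphp4 to a these genes had 33 to 323 covered sites each, and the counts were not tested against that.

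At Rbfox3 the 13 CpGs, 12 of them intronic, averaged 52.3%, 50.4% and 49.97% in STD and 46.5%, 51.03% and 48.3% in ENR, and the groups overlapped. Apart from Rbfox3 the granule neuron markers had 1 such site, at Pdzd2, so that the list gave 14 of 1000 covered sites (1.40%) and without Rbfox3 1 of 623 (0.161%). Astrocyte markers gave 5 of 600 (0.833%), from Fgfr3 and Aldh1l1, oligodendrocyte markers 3 of 548 (0.547%), from Opalin and Mbp, microglia markers 1 of 148 (0.676%), at Itgam, and interneuron markers 1 of 640 (0.156%), at Dlx2. The share of all autosomal sites was 0.510%, and nothing is read from these 5 lists, whose counts come from 1 gene or from 1 to 5 sites. Promoter sites averaged 2.34% for the granule neuron list, 3.35% for interneurons, 4.78% for oligodendrocytes, 7.72% for astrocytes and 22% for microglia, the last over 17 sites against 276 to 482 in the others. Methylation at markers does not give the number of cells of each type, and the part of cell mixture in the half-methylated sites was not tested.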

How the data were processed

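RRBS libraries from the dentate gyrus of 3 ENR and 3 STD mice were sequenced from one end. Per the submitters' processing notes, reads were trimmed with Trim Galore and aligned with Bismark, and methylKit was used for calls. The authors deposited percent methylation per cytosine and strand for sites with at least 10 reads in each library on GRCm38, so no read count test was possible, depth is unknown and no interval is given for a level. The percentages were tested with limma 3.58.1 with a variance trend, with Benjamini-Hochberg adjustment over all varying sites. p-values measure the spread between these mice. The sites and gene lists were chosen with earlier results of these data known. Clusters were chains with gaps of at most 1 kb. Promoters were 1 kb on each side of any GENCODE M21 start, and imprinted loci had flanks of 10 kb. The text names the 20 clusters with the most CpGs, the gametic DMR genes, the list counts and the 3 steadiest sites, of which 1 is not reported here. The Plagl1 blocks, the values of 3 promoters without a half-methylated site, the 7 sites over 25 points and the nearest-gene counts were picked after their values were seen. Island-like sequence had at least 50% GC and a CpG frequency of at least 0.6 of the expected over 201 bases. Fragments were cut at CCGG in silico, the usual RRBS site, since the enzyme is not given in the sources used here. Scripts were tested on simulated data.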

Additional observations from a re-analysis of the deposited data

How the results depend on the processing

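The number of half-methylated sites depended on the bounds, with 11264 sites for 25% to 75%, 1242 for 35% to 65% and 185 for 40% to 60%, and ran from 5889 to 8111 with 1 library left out; without both libraries numbered 3, an alternative chosen after seeing the data, it was 14086. The share in clusters, 26.2%, was 23.5% with strands merged, 43.4% and 7.03% for 25% to 75% and 40% to 60%, 30.1% to 35.2% with 1 library left out and 44.1% without both libraries numbered 3. The share at imprinted loci, 1.04%, was 0.543% for gametic DMR genes alone, 4.86% for 40% to 60% (6 of 9 sites from one Plagl1 fragment), 0.968% to 1.53% with 1 library left out and 1.55% without both libraries numbered 3. The ENR minus STD difference at gametic promoters ran from -3.62 to 2.86 points with 1 library left out, changed sign without STD 1 (0.31) and without ENR 3 (2.86), and was 0.43 without both libraries numbered 3. With the replicate number as a block it was -1.19 points (exact sign flips, p = 0.75), and limma with the block called 0 sites with 15810 under an unadjusted p of 0.05. Same-numbered libraries correlated in their deviations at 0.054, 0.031 and 0.122, and STD and ENR libraries with unlike numbers at -0.080 to 0.040. The labels name no pairs, and the numbers were not taken as pairs. No limma alternative called a site, with smallest adjusted p-values from 0.121 to 0.893. TGCCGC within 50 bases in place of 150 was found at 3.78% of the sites.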

Other observations

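The X chromosome, of which one copy is silenced in female cells and which the rule left out, gave 422 of 22873 covered sites (1.84%) under the same bounds. Their library means were 48.9%, 49.3% and 47.4% in STD and 49.98%, 49.8% and 45.04% in ENR, with ENR 3 lowest as on the autosomes. Promoters held 62.3% of them and 47.6% of all covered X sites, while on the autosomes they held 18.4% of the half-methylated sites and 61.0% of all covered sites. Sites with a mean from 30% to 70% made up 25.8% of the X chromosome and 8.08% of the autosomes, and the rule took 7.14% and 6.31% of them.

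With tighter bounds of 40% to 60% the imprinted loci held 9 of 185 sites, and 6 of the 9 lay on the plus strand of the single 93 bp fragment of Plagl1, so that they share reads.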
